A study of Rattus norvegicus with 47 samples.

Results

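The S100 proteins are small EF-hand proteins that bind calcium, and the 7 genes described here, S100a4, S100a6, S100a8, S100a9, S100a10, S100a11 and S100a13, are family members known from leukocytes. They were chosen by gene symbol from the 20935 genes of the array table, with the brightest probe set kept for a symbol, and each of the 7 had 1 probe set. Their mRNA was followed in the blood of 8 male SHR rats, an inbred strain with spontaneous high blood pressure, aged 16 weeks. The middle cerebral artery (MCA) was blocked for a limited time with a thread, and blood was taken from the same animals at 0 h, before anesthesia and surgery, and at 1, 2, 3, 6 and 24 h post MCA occlusion. The thread was withdrawn between 1 and 2 h, under renewed anesthesia, to restore the blood flow (reperfusion). Each time point had 8 arrays, apart from 6 h with 7, where the array of 1 rat was lacking. The last sample was drawn by heart puncture and the earlier ones from a tail vein. It was taken after an anesthetic overdose, so the site of collection and the last time point cannot be told apart. No sham operated group was included, and the occlusion, the reperfusion, the surgery, the anesthesia and the time of day cannot be told apart either.

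S100 proteins work as pairs of subunits that open a binding surface when calcium rises. S100A8 and S100A9 join into calprotectin, an abundant cytosolic protein of neutrophils and monocytes that is released in inflammation and can act on Toll-like receptor 4. S100A10 differs from the rest of the family in that it no longer binds calcium and is held by annexin A2 at the cell membrane, where it serves as a plasminogen receptor. The S100 genes lie close together in the genome, and on the rn5 build the 7 probe sets were all on chromosome 2. S100a13 was at chr2:209334128-209342980, S100a4 at chr2:209431373-209433679, S100a6 at chr2:209441379-209442604 and S100a8 at chr2:209508171-209508690, all on the plus strand. S100a9 lay at chr2:209531412-209534093 on the minus strand, 22721 bases from S100a8. S100a10 at chr2:210966299-210974974 and S100a11 at chr2:210999098-211004310 were both annotated on the minus strand of rn5, whereas the S100a11 entry in RefSeq (GRCr8) is on the plus strand.

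Promoter sequences, from 250 bases before to 50 bases after the gene start, were matched in RefSeq (GRCr8) for 5 of the 7 genes. The promoters of S100a9 and S100a4 are shown because, among these 5, S100a9 had the largest rise in blood and S100a4 the largest fall. S100a9 is read on the minus strand of chr2:178490573-178490872 and S100a4 on the plus strand of chr2:178388279-178388578, and the capitals mark a PU.1 core (TTCCTC, the reverse complement of GAGGAA) and a TATA box (TATAAA).
S100a9: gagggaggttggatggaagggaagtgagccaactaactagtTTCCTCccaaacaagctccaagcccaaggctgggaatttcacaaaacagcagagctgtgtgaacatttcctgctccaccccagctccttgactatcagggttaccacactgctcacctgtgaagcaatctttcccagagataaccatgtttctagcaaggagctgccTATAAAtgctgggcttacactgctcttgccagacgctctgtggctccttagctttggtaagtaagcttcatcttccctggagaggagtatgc
S100a4: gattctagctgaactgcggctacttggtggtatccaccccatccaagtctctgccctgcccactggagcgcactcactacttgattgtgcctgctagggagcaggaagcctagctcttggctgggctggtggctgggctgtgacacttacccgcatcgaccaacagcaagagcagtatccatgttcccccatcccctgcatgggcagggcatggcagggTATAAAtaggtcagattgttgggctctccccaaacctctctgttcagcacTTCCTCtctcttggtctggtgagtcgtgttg
The PU.1 letters, named for a transcription factor of myeloid and B cells, began 209 bases before the S100a9 start and 20 bases after the S100a4 start. The TATA box began 42 bases before the start of S100a9 and 31 bases before that of S100a4. It was added to the search after the sequences had been seen. Neither motif was found in the promoters of S100a6, S100a11 and S100a13, and the search covered both strands. The C/EBP letters TTGCNNAA, the STAT letters TTCNNNGAA and the AP-1 letters TGANTCA were not in any of these 5 windows. Of 33469 rat promoters of this length, 27.6% held the PU.1 letters, 14.2% the TATA box, 10.6% the C/EBP letters, 8.87% the STAT letters and 7.33% the AP-1 letters. These matches are a description of the windows and not of binding.

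Levels are the authors' log2 RMA signals, given as the mean ± SD that the authors deposited for the arrays of a time point, since single arrays could not be assigned to a rat and time point. A level is compared only with other levels of the same probe set. Changes are differences of these means on the log2 scale with the standard error (SE) of a moderated test, and a gene passed the test where its Benjamini-Hochberg adjusted p over 27596 probe sets was below 0.05. All 7 genes passed the F-test over the 6 time points, as did 55.5% of all probe sets. The test treats arrays as independent although the rats were sampled repeatedly, and the 5 comparisons with 0 h share the 0 h arrays. Over all probe sets the means lay between 2.29 and 13.62, the median SD was 0.14 to 0.16 at the 6 time points, and the median change from 0 h was 0.04 to 0.07.

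**Figure D1:**
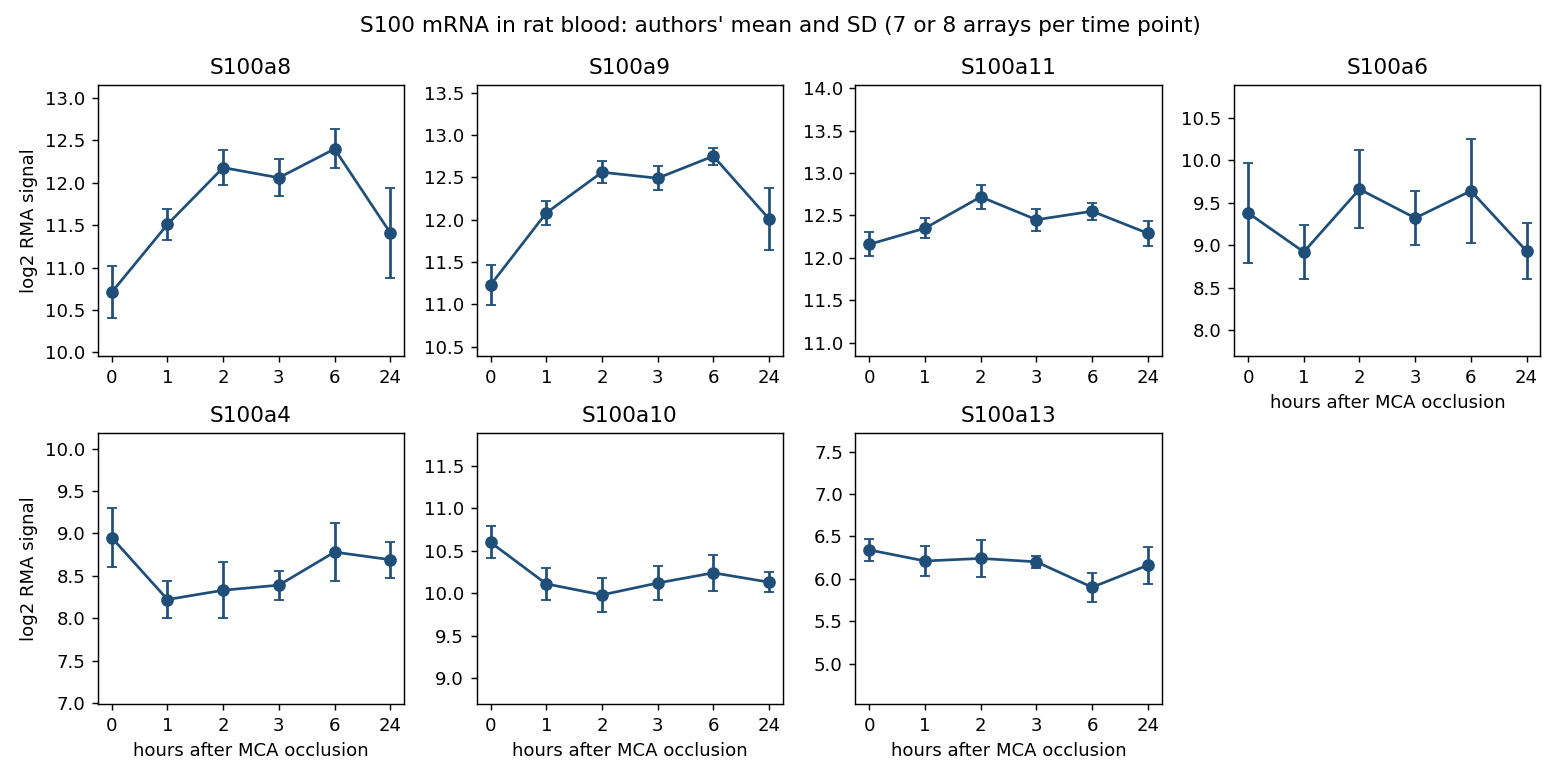
Authors' mean log2 RMA signal of each S100 gene against hours after MCA occlusion, with time points spaced evenly. Bars are the authors' SD over 8 arrays, or 7 at 6 h, every panel spans the same number of log2 units, and S100a8 and S100a9 rise to their highest means at 6 h while S100a4 is lowest at 1 h and S100a10 at 2 h.

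S100a8 and S100a9 rose most of the 7. S100a8 averaged 10.71 ± 0.31, 11.51 ± 0.18, 12.18 ± 0.21, 12.06 ± 0.22, 12.4 ± 0.23 and 11.41 ± 0.53 at 0, 1, 2, 3, 6 and 24 h in turn. The range of 1 SD around its mean at 0 h did not meet that at 1, 2, 3 or 6 h and met that at 24 h, where the spread between rats was widest. The rise was 1.75-fold, 2.78-fold, 2.56-fold, 3.24-fold and 1.63-fold at 1, 2, 3, 6 and 24 h, and it passed the test each time. At 6 h this was a change of 1.70 (SE 0.15, adjusted p = 4.44e-13), which was 3.18 times the largest of its SDs. In its order of levels 6, 2 and 3 h were not told apart, 3 h was above 1 h (adjusted p = 0.00851), 1 and 24 h were not told apart, and 24 h was above 0 h (adjusted p = 0.000232).

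S100a9, the partner subunit, kept a narrower spread. Its mean was 11.23 ± 0.24, 12.08 ± 0.14, 12.56 ± 0.13, 12.49 ± 0.14, 12.75 ± 0.10 and 12.01 ± 0.37 at 0, 1, 2, 3, 6 and 24 h in turn. At none of the 5 later time points did the range of 1 SD meet that at 0 h. The rise was 1.79-fold, 2.51-fold, 2.4-fold, 2.86-fold and 1.71-fold at 1, 2, 3, 6 and 24 h. The change at 6 h was 1.51 (SE 0.10, adjusted p = 1.2e-16), and the F-test placed S100a9 at rank 339 and S100a8 at rank 690 of all probe sets. Its levels fell into the same order as those of S100a8, with 3 h above 1 h (adjusted p = 0.00338) and 24 h above 0 h (adjusted p = 1.01e-07). The change of S100a8 minus that of S100a9 was -0.04, 0.15, 0.09, 0.18 and -0.07 at 1, 2, 3, 6 and 24 h, and these differences between the 2 genes were not tested.

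In whole blood, fewer cells of a type and less RNA per cell cannot be told apart, and the same holds for more. Marker genes of blood cells moved beside the calprotectin pair. Of 14 neutrophil markers, 13 were higher at 1 h and 12 at each of 2, 3 and 6 h, where 21.7%, 21.7%, 27.3% and 22.5% of all probe sets were, with median changes of 0.80, 1.08, 0.95 and 1.06. At 24 h 7 were higher and 1 was lower (17.4% and 13.9% of all probe sets), with a median of 0.23 and single genes between -0.90 and 1.24, the latter for Fpr1. Csf3r was then at 0.88, Cxcr2 at 0.82 and Mmp8 at 0.59, whereas Camp was at 0, Retnlg at -0.11 and Ngp at -0.90. Lcn2, the neutrophil granule protein lipocalin 2, changed by 2.81 at 6 h and by 0.12 at 24 h. Fpr1, a receptor for bacterial formyl peptides, changed by 2.80 at 2 h. Ltf, the granule protein lactoferrin, was between 0.01 and 0.06 and passed no test. Ltf was dim, at 5.86 at 0 h, and whether weak signal kept its changes small was not tested. Cxcr1, Mpo and Elane were also dim, at 6.09, 6.19 and 6.55 at 0 h, with changes of 0.33, 0.12 and 0.10 at 24 h. Over all probe sets 18.6%, 19.2%, 19.3% and 13.9% were lower at 2, 3, 6 and 24 h. All 9 measured B cell markers were lower at 2 h (median -2.03, with Ms4a1 at -2.56 and Ebf1 at -2.49). All 10 T cell markers were lower at 2, 3, 6 and 24 h, with the largest median, -1.19, at 6 h, when Cd4 was at -1.55 and Cd28 at -1.45. Of 9 monocyte markers 5 were lower and 3 higher at 6 h (median -0.51), where the macrophage receptor gene Adgre1 was at -1.90 and Cd14, a coreceptor for lipopolysaccharide, at 1.34. Of 7 NK cell markers 5 were lower and 2 higher at 6 h, with Klrk1 at -1.35 and Ncr3 at 0.82, and Prf1 had its largest change, -1.02, at 3 h. Platelet markers had medians of 0.07 to 0.33, with Gp5 at 0.54 at 1 h and Itga2b at 0.49 at 24 h. Erythroid markers had medians of -0.12 to 0.21, with Slc4a1 at 0.58 at 24 h. Of the 63 marker probe sets, 57 were above the 0 h median of all probe sets, 6.61. The part of these markers in the S100 changes was not tested.

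**Figure D2:**
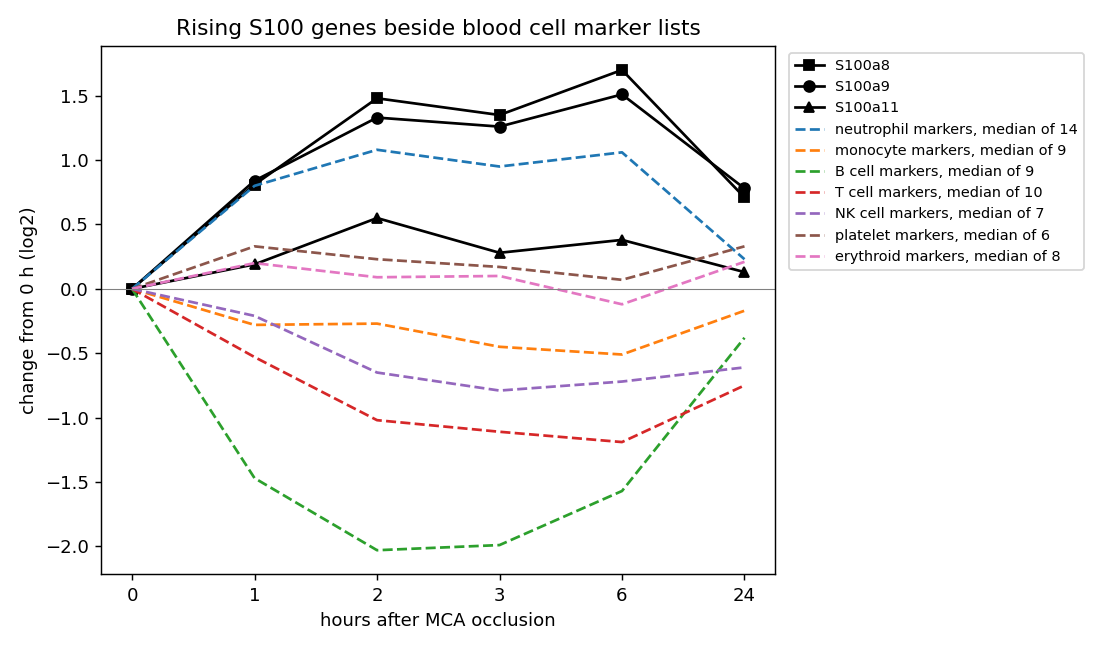
Change from 0 h on the log2 scale against hours after MCA occlusion, with time points spaced evenly, for S100a8, S100a9 and S100a11 (solid) and for the median of each blood cell marker list (dashed). The neutrophil median is 1.08 at 2 h and 0.23 at 24 h, when S100a8 and S100a9 are at 0.71 and 0.78. Of the 14 single neutrophil markers, which are not drawn, 7 are higher and 1 is lower at 24 h. They lie between -0.90 for Ngp and 1.24 for Fpr1, with Csf3r at 0.88 and Cxcr2 at 0.82.

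S100a11, a subunit linked to annexin A1 and to growth control, rose less, with its highest mean at 2 h. It averaged 12.16 ± 0.14, 12.35 ± 0.12, 12.72 ± 0.14, 12.45 ± 0.13, 12.55 ± 0.10 and 12.29 ± 0.15 at 0, 1, 2, 3, 6 and 24 h in turn. Its ranges of 1 SD at 2, 3 and 6 h lay above that at 0 h, and those at 1 and 24 h met it. The change was 0.19 (SE 0.07) at 1 h, 0.55 (SE 0.07) at 2 h, 0.28 (SE 0.07) at 3 h and 0.38 (SE 0.07) at 6 h, and these passed the test. The change at 1 h did not pass after each time point was centred on its median (0.14, adjusted p = 0.112). At 24 h the change was 0.13 (adjusted p = 0.142), and 22.8% of the peak was left. No neighbours in its order of levels were told apart, 2 h and 6 h included (adjusted p = 0.116). RefSeq names 7 other rat loci after S100a11 and 1 after S100a10, so the probe sets of these 2 genes may also read near copies.

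S100a4 and S100a10 were lower from the first hour. S100a4, which binds non-muscle myosin and is tied to cell movement, averaged 8.95 ± 0.35, 8.22 ± 0.22, 8.33 ± 0.33, 8.39 ± 0.17, 8.78 ± 0.34 and 8.69 ± 0.21 at 0, 1, 2, 3, 6 and 24 h in turn. Its ranges of 1 SD at 1 and 3 h lay below that at 0 h, and those at 2, 6 and 24 h met it. S100a4 fell by 0.73 (SE 0.13, adjusted p = 2.49e-05) at 1 h, by 0.62 at 2 h and by 0.57 at 3 h. The changes of -0.17 at 6 h and -0.26 at 24 h did not pass the test (95% intervals -0.44 to 0.11 and -0.52 to 0.01). It was higher at 6 h than at 1 h by 0.56 (adjusted p = 0.00174) and than at 2 h by 0.45 (adjusted p = 0.0249), and higher at 24 h than at 1 h by 0.48 (adjusted p = 0.0194). No neighbours in its order of levels were told apart.

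S100a10, the annexin A2 ligand also called p11, stayed below its starting level at every later time. It averaged 10.6 ± 0.19, 10.11 ± 0.19, 9.98 ± 0.20, 10.12 ± 0.20, 10.24 ± 0.21 and 10.13 ± 0.12 at 0, 1, 2, 3, 6 and 24 h in turn. The range of 1 SD met that at 0 h only at 6 h. The fall passed the test in all 5 comparisons and was largest at 2 h, at -0.61 (SE 0.09, adjusted p = 3.01e-07), with -0.47 (adjusted p = 0.000112) at 24 h. At 24 h 76% of its largest change was left, against a median of 52.1% over the probe sets that passed the F-test. Its level at 0 h was above the next highest, at 6 h (adjusted p = 0.00174), and no other neighbours in the order were told apart.

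S100a6, or calcyclin, differed between later time points with no change from 0 h past the test. It averaged 9.38 ± 0.59, 8.92 ± 0.32, 9.66 ± 0.46, 9.32 ± 0.32, 9.64 ± 0.61 and 8.93 ± 0.33 at 0, 1, 2, 3, 6 and 24 h in turn. Its SDs were the widest of the 7 genes at each time point up to 6 h, and every range of 1 SD met that at 0 h. None of its 5 changes from 0 h passed the test, from -0.45 (adjusted p = 0.0875) at 1 h to 0.29 (adjusted p = 0.284) at 2 h. It rose by 0.74 (SE 0.21, adjusted p = 0.0188) from 1 h to 2 h and was 0.72 higher at 6 h than at 1 h (adjusted p = 0.0151). It fell by 0.71 (SE 0.22, adjusted p = 0.0163) from 6 h to 24 h and was lower by 0.73 at 24 h than at 2 h (adjusted p = 0.0112). The fall from 6 h did not pass in a Welch test (adjusted p = 0.117). No neighbours in its order of levels were told apart. The directions of its means, down, up, down, up and down over the 5 intervals, were shared by 1169 probe sets, or 4.24% of all, and S100a6 itself passed the test in 2 of the 5.

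S100a13, which takes part in the release of proteins that lack a secretion signal, changed at 6 h. It averaged 6.34 ± 0.13, 6.21 ± 0.18, 6.24 ± 0.22, 6.2 ± 0.07, 5.9 ± 0.17 and 6.16 ± 0.22 at 0, 1, 2, 3, 6 and 24 h in turn. These means were below the median of all probe sets at each time point (6.61 to 6.66), so that S100a13 was the only dim gene of the 7. Only the range of 1 SD at 6 h lay apart from that at 0 h. S100a13 fell by 0.44 (SE 0.09, adjusted p = 6.44e-05) at 6 h, and its changes at 1, 2, 3 and 24 h, between -0.10 and -0.18, did not pass. In the order of its levels, 6 h stood below 24 h, the next lowest (adjusted p = 0.0285). Its probe set overlaps that of S100a1 on the opposite strand by 1602 bases.

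**Figure D3:**
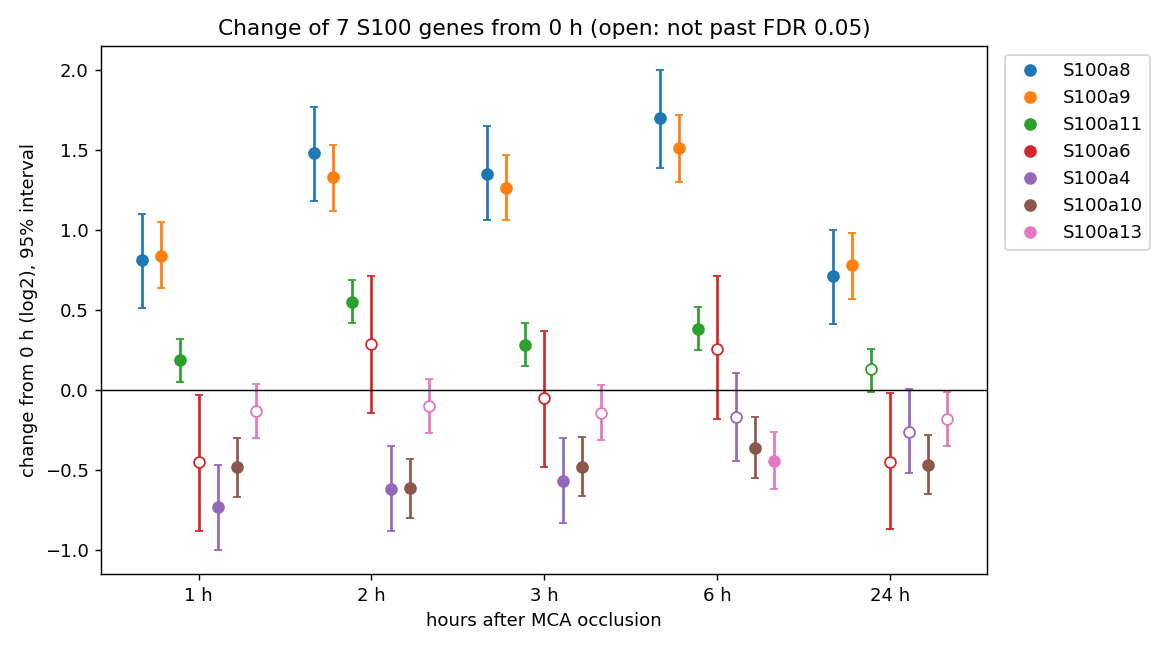
Change of each S100 gene from 0 h on the log2 scale at 1, 2, 3, 6 and 24 h after MCA occlusion, with 95% intervals of the moderated test and open points where the adjusted p was not below 0.05. S100a8 and S100a9 stand above the others at each time, up to 1.70 and 1.51 at 6 h, and S100a10 lies below 0 throughout.

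Counted together, S100a8, S100a9 and S100a11 were higher and S100a4 and S100a10 lower than at 0 h at 1, 2 and 3 h. At 6 h the same 3 were higher and S100a10 and S100a13 were lower, and at 24 h S100a8 and S100a9 were higher and S100a10 was lower. So 3 of 7 were higher at 1, 2, 3 and 6 h, where 21.7%, 21.7%, 27.3% and 22.5% of all probe sets were higher, and 2 of 7 at 24 h, where 17.4% were. Those lower were 2 of 7 at 1, 2, 3 and 6 h, against 15.4%, 18.6%, 19.2% and 19.3% of all probe sets, and 1 of 7 at 24 h, against 13.9%. With 7 genes, a difference of 1 gene moves these shares widely. The median change of the 7 was -0.13, 0.29, -0.05, 0.26 and -0.18 at 1, 2, 3, 6 and 24 h. Centring each time point on its median moved the share of the probe sets past the test that were higher, rather than lower, from 58.6% to 40% at 1 h, from 53.9% to 44.2% at 2 h, from 58.7% to 47.2% at 3 h, from 53.8% to 44.6% at 6 h, from 55.6% to 37.3% at 24 h and from 53.1% to 64.4% from 1 h to 2 h. For the later steps in turn it went from 54% to 47.1%, from 48.9% to 53.5% and from 54.1% to 49.8%.

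After the first hour most calls between neighbouring time points came from 1 h to 2 h and from 6 h to 24 h. From 1 h to 2 h, the interval in which the thread was withdrawn under renewed anesthesia, S100a6, S100a8, S100a9 and S100a11 rose. So 4 of 7 were higher where 4.66% of all probe sets were, and 0 of 7 were lower (4.11% of all). The withdrawal, the anesthesia and the time elapsed cannot be told apart. S100a8 rose by 0.67 (adjusted p = 0.00146), S100a9 by 0.48 (adjusted p = 0.000968) and S100a11 by 0.37 (adjusted p = 0.000121). From 2 h to 3 h 1 of 7 was lower (1.62% of all) and 0 higher (1.9% of all), and the one was S100a11, which fell by 0.27 (adjusted p = 0.0102, and 0.067 in a Welch test). From 3 h to 6 h 1 of 7 was lower (2.44% of all) and 0 higher (2.34% of all), namely S100a13, which fell by 0.30 (adjusted p = 0.0364, and 0.107 in a Welch test). At an unadjusted p below 0.05, 4 of the 7 differed from 1 h to 2 h, 1 from 2 h to 3 h and 4 from 3 h to 6 h in the moderated test. From 6 h to 24 h S100a6, S100a8, S100a9 and S100a11 were lower, 4 of 7 against 8.68% of all, and S100a13 was higher, 1 of 7 against 10.2%. S100a8 fell by 0.99 (adjusted p = 1.47e-06) and S100a9 by 0.74 (adjusted p = 3.37e-07), whereas S100a13 rose by 0.26 (adjusted p = 0.0285, and 0.116 in a Welch test). Over the same interval 12 of 14 neutrophil markers were lower, with a median of -0.76.

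**Figure D4:**
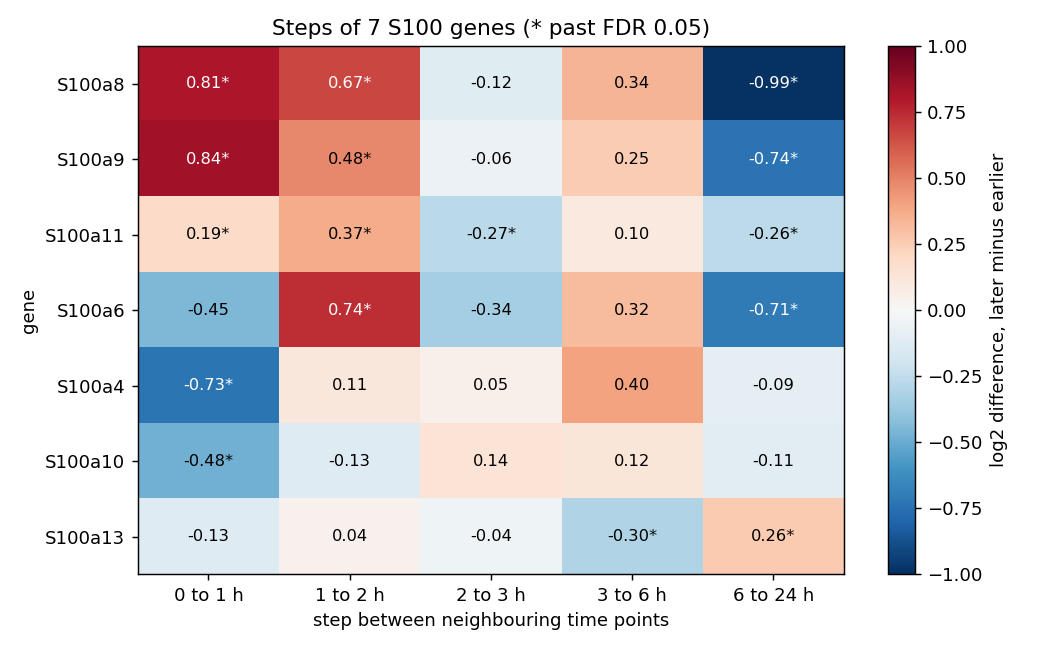
Log2 difference of each S100 gene between neighbouring time points, later minus earlier, as colour and number, with an asterisk where the adjusted p was below 0.05. From 1 to 2 h 4 genes rose, and 4 fell from 6 to 24 h, when S100a8 dropped by 0.99.

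Time points further apart gave the following counts. At 3 h 2 of 7 genes differed from 1 h, both higher (10.4% of all probe sets in either direction). At 6 h 6 of 7 differed from 1 h (19.4% of all), 5 of them higher and S100a13 lower. S100a4 alone differed between 24 h and 1 h (5.85% of all). S100a4 was higher and S100a13 lower at 6 h than at 2 h, 2 of 7 against 10.1% of all. S100a6, S100a8, S100a9 and S100a11 were lower at 24 h than at 2 h, 4 of 7 against 16.2%. S100a8 and S100a9 were lower at 24 h than at 3 h, 2 of 7 against 13.8%.

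The counts for lists of related genes that follow are small and stand beside the shares over all probe sets given above. Genes that encode receptors for calprotectin and their signalling partners were measured for 9 of 10 listed, of which 7 passed the F-test, where 55.5% of all probe sets did. Cd33, a sialic acid receptor of myeloid cells reported to bind S100A9, was the furthest changed, at 1.54, 2.51, 2.84, 3.17 and 1.93 at 1, 2, 3, 6 and 24 h, and its level of 8.12 ± 0.35 at 0 h was exceeded 9.01-fold at 6 h (adjusted p = 2.93e-23). Cd14, the Toll-like receptor 4 coreceptor, which is also among the monocyte markers, was at 0.22 at 1 h and 1.84 at 3 h (adjusted p = 1.04e-13), and back at -0.11 at 24 h. Myd88, the adaptor of Toll-like receptors, reached 0.93 at 6 h (adjusted p = 7.78e-15), and Cd69, an activation antigen of lymphocytes reported to bind the complex, fell by 1.36 at 6 h (adjusted p = 8.77e-09). Tlr4 was lower at 1, 6 and 24 h, with changes of -0.23, -0.26 and -0.34 (adjusted p = 0.0318, 0.0191 and 0.00277), and its changes at 2 and 3 h, -0.10 and 0.06, did not pass. Irak4, a kinase downstream of Myd88, reached 0.82 at 3 h (adjusted p = 4.76e-10), and Ager, the receptor for advanced glycation end products, 0.21 at 6 h (adjusted p = 0.0059). In the list 1 of 9 genes was higher and 2 lower at 1 h (21.7% and 15.4% of all probe sets), 5 higher and 1 lower at 2 h (21.7% and 18.6%), 4 higher and 1 lower at 3 h (27.3% and 19.2%), 5 higher and 2 lower at 6 h (22.5% and 19.3%), and 2 higher and 2 lower at 24 h (17.4% and 13.9%), with medians of 0.06, 0.16, 0.06, 0.21 and 0.08.

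Genes of the annexin A2 and S100A10 complex and of plasmin formation moved in both directions. Anxa2, which encodes the annexin A2 that holds it, was at 0.39, 0.79, 0.69, 0.98 and 0.34 at 1, 2, 3, 6 and 24 h and passed the test each time, so that it was higher at all 5 time points at which S100a10 was lower. Plaur, the urokinase receptor, rose by 1.23 at 6 h (adjusted p = 3.56e-13), and Plau, urokinase itself, by 0.98 at 2 h (adjusted p = 1.78e-12). Serpinb2, an inhibitor of urokinase, had its largest change, 1.31, at 24 h (adjusted p = 1.27e-08). Ahnak fell by 0.66 at 1 h (adjusted p = 3e-09) and was at -0.39 at 24 h (adjusted p = 0.000138). Plgrkt, which was dim, fell by 0.61 at 6 h (adjusted p = 0.000744). In this list 8 of 9 genes passed the F-test, where 55.5% of all probe sets did. Of the 9 genes of this list 5, 5, 6, 5 and 6 were higher (21.7%, 21.7%, 27.3%, 22.5% and 17.4% of all probe sets) and 2, 2, 2, 1 and 1 lower (15.4%, 18.6%, 19.2%, 19.3% and 13.9%) at 1, 2, 3, 6 and 24 h, with medians of 0.19, 0.23, 0.26, 0.20 and 0.19.

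The other annexins split. Anxa1, a ligand of formyl peptide receptors whose protein binds S100A11, rose by 1.63 at 6 h (adjusted p = 5.91e-17), and Anxa11, whose protein binds S100A6, by 1.02 at 6 h (adjusted p = 8.1e-15). Anxa5, at -0.73 at 1 h (adjusted p = 3.78e-06), and Anxa6, at -0.69 at 2 h (adjusted p = 1.6e-07), both fell. All 6 passed the F-test, where 55.5% of all probe sets did. At 1 h 2 of the 6 were higher and 3 lower (21.7% and 15.4% of all probe sets). At 2 h the counts were again 2 and 3 (21.7% and 18.6%). At 3 h 2 were higher and 2 lower (27.3% and 19.2%), at 6 h 2 and 2 (22.5% and 19.3%), and at 24 h 3 and 1 (17.4% and 13.9%).

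Partners of S100 proteins inside the cell were measured for 8 of 9 listed. Cacybp, which encodes the calcyclin binding protein, fell by 1.00 at 6 h (adjusted p = 9.61e-07). Tpm1, a tropomyosin, rose by 0.57 at 24 h (adjusted p = 9.51e-09), and Iqgap1, a cytoskeletal scaffold, by 0.48 at 6 h (adjusted p = 1.86e-09). All 8 passed the F-test, where 55.5% of all probe sets did. In this list 2 of 8 were higher and 3 lower at 6 h (22.5% and 19.3% of all probe sets), with a median of -0.08. Of the 4 genes tied to release with S100A13, Fgf1 was at 0.36 at 24 h (adjusted p = 5.16e-05) and Il1a at 0.25 at 3 h (adjusted p = 0.0115), both dim, with 4.62 and 4.09 at 0 h, and Syt1 and Sphk1 did not pass the F-test.

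Of 10 other S100 genes on the array, 4 passed the F-test, where 55.5% of all probe sets did, and their largest changes were small beside those of S100a8 and S100a9. S100a3 was at 0.34 at 2 h (adjusted p = 0.0109), S100b at 0.29 at 2 h (adjusted p = 0.00174), S100a16 at 0.23 at 1 h (adjusted p = 0.00719) and S100a1 at -0.20 at 6 h (adjusted p = 0.0454). At 1, 2, 3, 6 and 24 h 2, 2, 4, 1 and 1 of the 10 were higher, where 21.7%, 21.7%, 27.3%, 22.5% and 17.4% of all probe sets were, and 1 was lower, at 6 h. The 6 that did not pass the F-test had largest changes of 0.04 to 0.26 in size.

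The genes whose 5 changes lay closest to those of each S100 gene were found among 7900 probe sets by the root mean square (RMS) difference on the log2 scale over 5 time points. For S100a8 they were Lrg1, a leucine-rich glycoprotein (RMS 0.10), Mir291a (0.101) and Pglyrp1, a bactericidal peptidoglycan recognition protein (0.105). For S100a9 they were Plxnc1, a semaphorin receptor (RMS 0.0537), Cdc42ep3 (0.0838) and Fndc3b (0.0866). Sipa1 (RMS 0.0174), Anxa9 (0.0382) and Ier2 (0.0472) lay closest to S100a11. S100a10 had Ccdc109b (RMS 0.0274), Srsf2 (0.0319) and Naf1 (0.0359), and S100a4 had Shfm1 (0.0548), Ap3m1 (0.0659) and Olr1570 (0.0737). The closest to S100a13 were Fam20b (RMS 0.0272), Pprc1 (0.0413) and Tpp1 (0.0465). S100a6 had the least close neighbours, with Pank1 at an RMS of 0.118, Trappc4 at 0.138 and Hmgn5b at 0.139. These genes were picked for their likeness among changes that share the 0 h arrays, and the RMS values are a description.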

How the data were processed

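Blood cell RNA from 8 rats at 6 time points was hybridized to 47 RaGene arrays. The authors made 1 table of 27596 probe sets by RMA, and its deposited log2 means and SDs per time point, on rn5, were used here. The submitters' processing notes name limma. Columns with the authors' fold changes, p-values and FDRs were not used. A further 47 columns of single arrays carry names that match no rat or time point and were not used, so the planned fit on single arrays was replaced by the same moderated test from means, SDs and array numbers (R 4.3.3, limma 3.58.1, squeezeVar, 41 residual degrees of freedom), with Benjamini-Hochberg adjustment over all probe sets and a threshold of 0.05. The test was also run on simulated data, and no outcome of that run is reported here. Precision is limited by the 7 or 8 arrays per mean. The 7 genes and the 14 lists of 123 genes (116 measured) were chosen with earlier results of these data known. Named genes were the 7, the 3 most alike genes of each with a largest change of at least 0.3, up to 4 genes of each list that passed the F-test with the largest changes, and 2 per marker list; Ltf, Ncr3, Tlr4, Irak4, Ager, Syt1 and Sphk1 were added after their values were seen, and 2 genes of the rule are not reported here. Alternatives were no variance moderation, a Welch test, an intensity trend with robust prior, centring, quantile normalization of the means, leaving out the dimmest 25% and leaving out 24 h.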

Additional observations from a re-analysis of the deposited data

How the results depend on the processing

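All 7 S100 genes passed the F-test in each setting tried for it. In a Welch test, which uses only the SDs of the 2 time points compared, the S100 genes called went from 1 to 0 between 2 h and 3 h, from 1 to 0 between 3 h and 6 h and from 5 to 3 between 6 h and 24 h. At an unadjusted p below 0.05 that test gave 1, 4 and 5 of the 7. Over all probe sets its calls were 387 in place of 973, 326 in place of 1319 and 3364 in place of 5211 for these intervals. S100a13 passed at 3 h in a Welch test (adjusted p = 0.0489) and after quantile normalization (0.0457), and at 24 h after centring (0.0488) and quantile normalization (0.0384). In the comparisons with 0 h the one other change of call was the 1 h rise of S100a11, lost after centring. Centring lowered the number of all probe sets called higher from 5997 to 3465 at 1 h and from 4794 to 2749 at 24 h. No change of these genes turned direction in the alternatives run. The median of the other S100 genes changed sign after quantile normalization, to -0.02 at 2 h and -0.05 at 6 h, as did that of the other annexins, to 0.04 at 3 h. No paired analysis was possible because the names of the single-array columns match no rat or time point, and leaving out each rat was not run for the same reason. Trying every probe set of a symbol gave nothing further, since each gene had 1.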
